A study of Mus musculus with 39 samples.

Results

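Collagens and the enzymes that finish them, 34 genes in all, were followed in neuroblastomas of TH-MYCN mice, in which a MYCN transgene driven by the tyrosine hydroxylase promoter gives rise to tumors of the sympathetic lineage. The members were the transcripts named as collagen alpha chains, prolyl 4-hydroxylases (P4ha1 to P4ha3), lysyl hydroxylases (Plod1 to Plod3), Lox, Loxl1, Loxl2 or Serpinh1 that averaged 10 or more counts over the 20 footprint libraries. Of 52 transcripts with such a name among 20333, 25 collagens and 9 enzyme or chaperone genes met this limit. The members were thus chosen by their mean footprint counts over all groups, and that level is given only as a description. Col10a1, with a mean of 13.75 counts, and Col4a5, with 14.05, lay just inside the limit, and Col25a1, with 6.90, and Col7a1, with 4.45, lay just outside. By group (combination, DFMO, diet, control), Col10a1 averaged 36.4, 10.6, 5.8 and 2.2 counts, and Col9a1 41, 11.4, 5.6 and 3. Both were thus members mainly through combination mice, and their rises in that group are not independent of the choice of members. P4ha3 was not a member. All 34 members also passed the filter on low counts in both assays.

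Every group was made of tumors of TH-MYCN mice, described in the labels as MYCN amplified. The combination mice received a diet without proline and arginine together with difluoromethylornithine (DFMO), an inhibitor of ornithine decarboxylase in polyamine synthesis. DFMO mice received the control diet with DFMO, diet mice the diet without proline and arginine and no drug, and control mice the defined control diet (CD) and no drug. Ribosome footprints were sequenced from 5 mice per group and total RNA of the same extracts from 5, 5, 5 and 4 of them. Within each assay, every sample came from a different mouse. Mice are named by group and number as labelled, with Proargdrop for the diet without proline and arginine. No label gave sex, age or batch.

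Collagens are built from repeats of glycine followed by 2 further residues, of which one or both are often proline. Prolyl 4-hydroxylases add a hydroxyl group to many of these prolines in the endoplasmic reticulum, which stabilizes the triple helix, and lysyl hydroxylases do the same for lysines that later carry sugars or crosslinks. Serpinh1 (HSP47) escorts the folded helix, and lysyl oxidases crosslink the secreted fibers. In tumors, fibrillar collagens are known mainly as products of fibroblasts, and type IV and type XVIII collagens as parts of vascular basement membranes.

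Coding sequences show how much proline these chains hold. The sequences given here are the 40 codons of greatest proline content from an abundant fibrillar chain, a second fibrillar chain, a basement membrane chain and Col12a1, the member called for diet, with the hydroxylase subunit P4ha1 for contrast. They come from the counted transcripts in GENCODE M21 (GRCm38), run 5′ to 3′ in the sense of the transcript, and carry the proline codons in capitals.
Col1a1: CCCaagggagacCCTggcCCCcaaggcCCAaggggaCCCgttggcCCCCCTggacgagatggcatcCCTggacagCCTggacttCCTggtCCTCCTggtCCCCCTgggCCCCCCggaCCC
Col3a1: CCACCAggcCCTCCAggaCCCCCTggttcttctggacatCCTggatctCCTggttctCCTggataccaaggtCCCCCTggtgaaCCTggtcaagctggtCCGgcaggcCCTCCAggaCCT
Col4a1: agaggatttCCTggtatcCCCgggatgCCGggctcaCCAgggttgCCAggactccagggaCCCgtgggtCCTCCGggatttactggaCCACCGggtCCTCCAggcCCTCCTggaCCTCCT
Col12a1: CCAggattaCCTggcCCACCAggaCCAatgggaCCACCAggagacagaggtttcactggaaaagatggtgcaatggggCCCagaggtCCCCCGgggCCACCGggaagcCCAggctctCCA
P4ha1: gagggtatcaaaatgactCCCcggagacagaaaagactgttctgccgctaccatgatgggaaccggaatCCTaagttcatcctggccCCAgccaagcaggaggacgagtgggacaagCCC
The Col1a1 stretch (codons 103 to 142 of ENSMUST00000001547, chr11:94936224-94953042, plus strand) holds 17 proline codons, of which 1 is CCA. The Col3a1 stretch (codons 177 to 216 of ENSMUST00000087883, chr1:45311538-45349706, plus strand) holds 16, and the Col4a1 stretch (codons 175 to 214 of ENSMUST00000033898, chr8:11198423-11312826, minus strand) also 16. In Col12a1 (codons 2828 to 2867 of ENSMUST00000071750, chr9:79598991-79718518, minus strand) there are 14, and in P4ha1 (codons 296 to 335 of ENSMUST00000009789, chr10:59323296-59373304, plus strand) there are 4.

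Over whole coding sequences, proline codons made up a median of 16.2% of the 25 collagen members, between 4.50% in Col6a6 and 23.5% in Col4a5, against 5.26% over 20191 genes. The 9 enzyme and chaperone members had a median of 4.53%, close to an ordinary gene. Col1a1 used CCA for 3.99% of its proline codons, the lowest share among the collagen members, whose median was 34.2%.

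Footprint libraries held 2137838 to 12409644 counts and were shallowest in control mice, at 2137838 to 4570191. RNA libraries held 10005384 to 51538191. Neuroblast markers summed to 1324 to 1960 footprint CPM (library-scaled counts) in combination mice, 1242 to 1536 in DFMO mice, 1080 to 1415 in diet mice and 1164 to 1583 in control mice, and none of the 8 was at 0 in a footprint library. The RNA of control mice CD_5696, CD_5778 and CD_5781 and of diet mouse Proargdrop_5828 stood apart, with 8806 to 13387 transcripts detected and 3 to 16 members at 0. The RNA of combination mouse Proargdrop_DFMO_5732 and of DFMO mice CD_DFMO_135 and CD_DFMO_5823 did not have its own footprints among its 5 closest footprint libraries, and these 3 are called unmatched. The same held for the RNA of control mouse CD_5696, which is counted among the 4 low-complexity libraries. Of the control RNA libraries, that of mouse CD_5812 alone stood apart in neither way.

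Levels below are CPM scaled to the adjusted library total (TMM), and changes are log2 values ± SE from edgeR's quasi-likelihood test, called at a Benjamini-Hochberg adjusted p under 0.05 over all genes tested. In these bulk tumors, fewer cells of a type and less RNA per cell cannot be told apart. The comparisons of each treatment with control share the 5 control mice, so their values are not independent of each other.

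Against control, combination tumors had fewer footprints on the basement membrane chains Col4a1, Col4a2 and Col18a1, on Col5a3 and on the lysyl hydroxylases Plod1 and Plod3, and more on Col10a1, Col9a1, Col28a1, Col12a1 and Loxl1. That is 5 members higher and 6 lower of 34, while 32.2% of all 12095 genes tested passed, 16.7% higher and 15.5% lower. Among the higher members, Col10a1 and Col9a1 met the member limit mainly through combination mice, so their rises are given as a description. DFMO tumors had 1 member higher, Col28a1, and 10 lower, among them all 3 main type VI chains, with 18.1% of all genes called, 9.24% higher and 8.84% lower. On the diet alone no member passed, as no gene did (0% called), although 9 members and 1312 genes had an unadjusted p under 0.05, and DESeq2 called 1 member. The median change of the 34 members was -0.27, -0.37 and 0.23 in combination, DFMO and diet tumors, beside 0.02, 0.02 and 0.00 over all genes tested. The share of members called was close to that of all genes in the combination. Under DFMO, 10 of 34 members were lower beside 8.84% of all genes, and that difference was not tested.

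Against the single treatments, the combination had 1 member higher and 1 lower than DFMO (3.22% of genes called, 2.27% higher and 0.951% lower), and 2 higher and 10 lower than the diet (28.8% called, 14.8% higher and 14.0% lower). Diet as a whole, the mean of both diet groups less the mean of both control diet groups, gave 1 member higher, Col12a1, with 0.976% of genes called, 0.670% higher and 0.306% lower. The interaction of diet and DFMO gave none (0.372% of genes called, 0.347% higher and 0.0248% lower), with 3 members at an unadjusted p under 0.05 and a smallest edgeR adjusted p of 0.239 among the members.

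**Figure D1:**
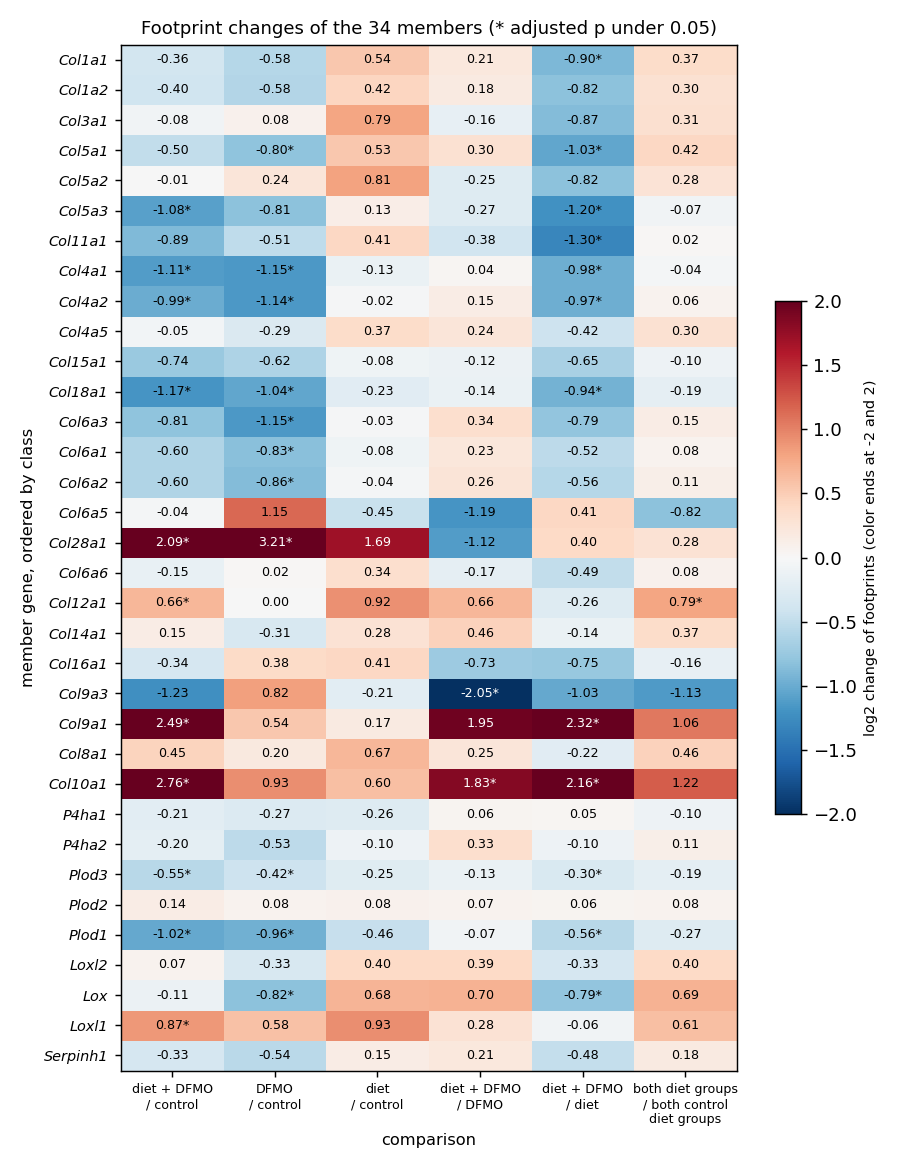
Log2 footprint change of each of the 34 members (rows, by class) in 6 comparisons (columns), with the value printed in each cell and an asterisk at an adjusted p under 0.05. Col4a1, Col4a2, Col18a1, Plod1 and Plod3 are blue with asterisks in the combination and in DFMO tumors against control, and no member has an asterisk in the diet column.

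Fibrillar collagens form the fibers of connective tissue, and the type I chains Col1a1 and Col1a2 assemble 2 to 1 with each other. Per coding length, Col1a1 had the highest footprint level of any member, at 122 ± 29.8 RPKM (reads scaled to coding length and depth) in combination, 106 ± 51.8 in DFMO, 204 ± 75.7 in diet and 152 ± 51.8 in control mice (SD, n = 5 each). The Col1a1 to Col1a2 ratio of footprint RPKM was 1.42 ± 0.068, 1.39 ± 0.0708, 1.50 ± 0.0812 and 1.43 ± 0.107 in the same order of groups (SD, n = 5 each). These ratios differ from group to group by about the spread between mice, and they were not tested.

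Footprint CPM of Col1a1 were 781, 363, 536, 442 and 447 in combination mice, 489.5, 691, 444, 374 and 217 in DFMO mice, 1387, 827, 445, 970.3 and 1166 in diet mice, and 689, 579, 1067, 511 and 464 in control mice. Of the diet mice, Proargdrop_5702 was highest and Proargdrop_5784 lowest, and the groups overlap. Col1a1 changed by -0.90 ± 0.32 in combination against diet tumors (edgeR adjusted p = 0.0436), a call that ended with no filter on low counts (-0.90, adjusted p = 0.0608), in limma on log2(RPKM + 0.5) (-0.67, adjusted p = 0.128) and on log2(RPKM + 0.1) (-0.67, adjusted p = 0.13), and without Proargdrop_DFMO_5736, Proargdrop_DFMO_5746, Proargdrop_DFMO_5805, Proargdrop_DFMO_5825, CD_DFMO_135, CD_DFMO_5802, Proargdrop_5702, Proargdrop_5705, Proargdrop_5785 or Proargdrop_5828 (-0.95 to -0.74, adjusted p = 0.0503 to 0.113). Against control its changes of -0.36 ± 0.32 in the combination, -0.58 ± 0.32 under DFMO and 0.54 ± 0.32 on the diet did not pass.

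Its partner Col1a2 (ENSMUST00000031668, chr6:4505493-4541544, plus strand) had 489, 256, 355, 303 and 289 in combination mice, 329, 451, 289, 261 and 159 in DFMO mice, 858, 503, 309, 602 and 708 in diet mice, and 475, 411, 746, 312 and 284 in control mice. The same mice were high and low, and no comparison passed, with -0.82 ± 0.31 in combination against diet tumors (edgeR adjusted p = 0.0529). Type III collagen, Col3a1, had 420.3, 213, 245, 207 and 234 in combination mice, 353, 502, 286, 205 and 127 in DFMO mice, 702, 424, 209, 492 and 574 in diet mice, and 279, 225, 391, 286 and 211 in control mice. Combination mouse Proargdrop_DFMO_5732 lay above the other 4 of its group, and no comparison of Col3a1 passed.

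Type V and XI chains set fiber thickness. Col5a1, a type V chain that starts type I fibers (ENSMUST00000028280, chr2:27886425-28039514, plus strand), had 87.4, 34.9, 38.4, 46.5 and 56.8 in combination mice, 60.03, 48.8, 35.3, 40.9 and 27.5 in DFMO mice, 157, 90.6, 72.3, 104 and 115 in diet mice, and 75.5, 71.9, 109, 58.5 and 57.99 in control mice. It fell by 0.80 ± 0.27 in DFMO against control tumors (edgeR adjusted p = 0.0455) and by 1.03 ± 0.26 in combination against diet tumors (edgeR adjusted p = 0.00717). Control mouse CD_5781 was highest of its group, and diet mouse Proargdrop_5702 highest of all. The DFMO call ended with no filter on low counts and without Proargdrop_DFMO_5805, Proargdrop_DFMO_5825, CD_DFMO_5747, CD_DFMO_5802, CD_DFMO_5806, CD_DFMO_5823, Proargdrop_5705, Proargdrop_5785, Proargdrop_5828, CD_5696, CD_5778 or CD_5781 (-0.85 to -0.63, adjusted p = 0.0521 to 0.127).

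Col5a3, another type V chain (ENSMUST00000004201, chr9:20770050-20815067, minus strand), had 18.9, 9.47, 7.95, 12.5 and 9.47 in combination mice, 15.1, 20.5, 14.7, 10.3 and 8.95 in DFMO mice, 42.7, 20.6, 11.02, 26.4 and 32.8 in diet mice, and 24.3, 18.995, 42.3, 19.8 and 18.9 in control mice. All combination mice lay below all control mice, and the change was -1.08 ± 0.33 (edgeR adjusted p = 0.0176). Without control mouse CD_5781, at 42.3 CPM, it was -0.81 (adjusted p = 0.0675). Against diet tumors the combination changed Col5a3 by -1.20 ± 0.32 (edgeR adjusted p = 0.00919).

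Col11a1, the type XI chain found inside cartilage fibers (ENSMUST00000092155, chr3:114030540-114220718, plus strand), had 2.86, 1.79, 2.85, 2.42 and 1.58 in combination mice, 2.15, 5.24, 3.53, 2.31 and 1.71 in DFMO mice, 3.61, 3.63, 7.45, 6.93 and 6.71 in diet mice, and 4.58, 6.04, 4.97, 2.69 and 2.96 in control mice. Every combination mouse lay below every diet mouse, with a change of -1.30 ± 0.32 (edgeR adjusted p = 0.00475), and of -0.62 in limma on log2(RPKM + 0.5) (adjusted p = 0.0419). Of the 7 fibrillar members, 4 fell in combination against diet tumors, 1 fell in combination and 1 in DFMO tumors against control, and the rest did not pass. Of all genes, 14.0%, 15.5% and 8.84% fell in these comparisons, and no difference from these shares was tested.

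**Figure D2:**
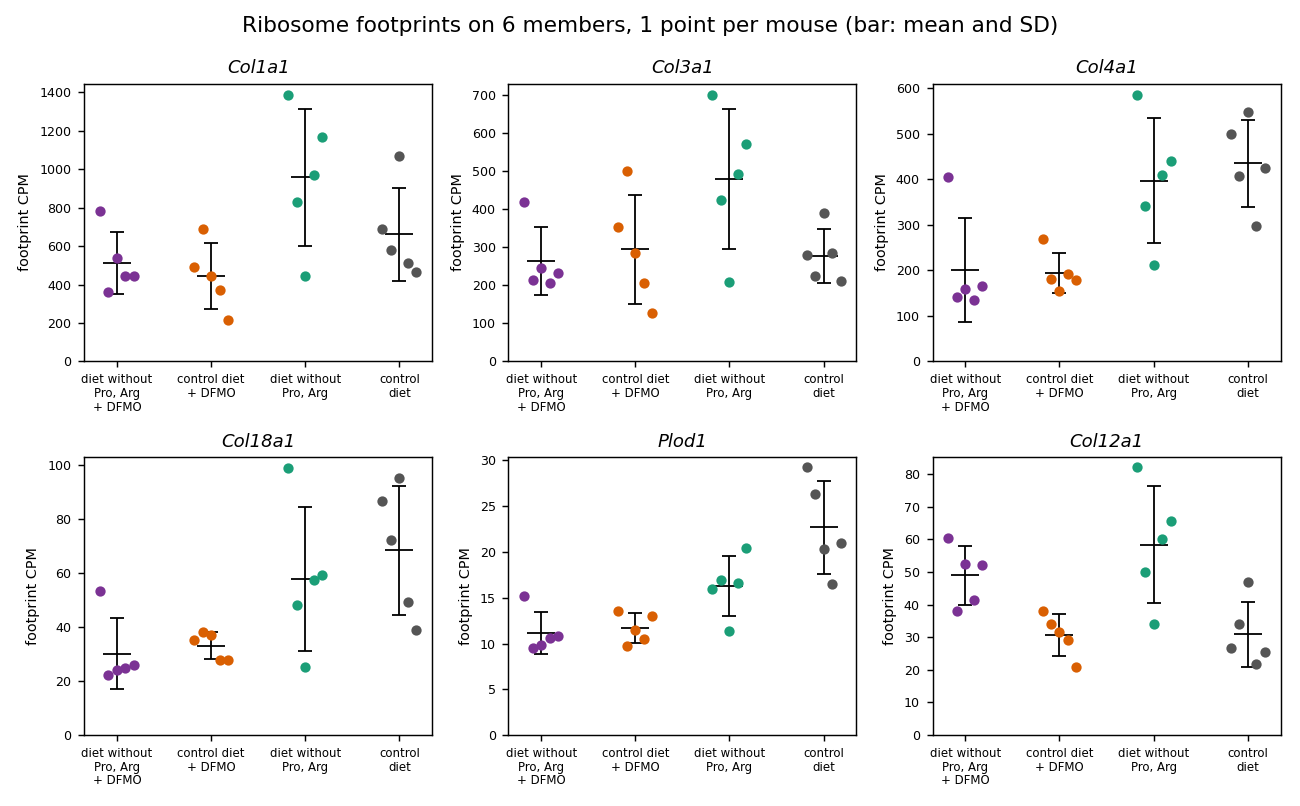
Footprint CPM (vertical axes) of 6 members in each mouse (points) of the 4 groups (horizontal axes), with mean and SD as bars. Plod1 lies between 9.47 and 15.1 CPM in combination mice, below every control mouse, and Col4a1 lies below every control mouse in all combination mice but Proargdrop_DFMO_5732.

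Type IV collagen is the network former of basement membranes, with 2 Col4a1 chains and 1 Col4a2 chain in the common form. Their footprints fell with DFMO, with or without the diet. Col4a1 had 404, 142, 159, 136 and 167 in combination mice, 269.9, 180.1, 155, 191 and 179 in DFMO mice, 586, 341, 211, 410.4 and 439.6 in diet mice, and 499, 407, 549, 297 and 424 in control mice. It fell by 1.11 ± 0.30 in the combination (edgeR adjusted p = 0.0091) and by 1.15 ± 0.30 under DFMO (edgeR adjusted p = 0.0142) against control. DFMO mice did not overlap control mice, whereas combination mouse Proargdrop_DFMO_5732, at 404 CPM, lay among the controls.

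Col4a2 (ENSMUST00000033899, chr8:11312805-11449287, plus strand) had 251, 87.8, 107, 86.4 and 108 in combination mice, 164, 109, 92.8, 112 and 98.9 in DFMO mice, 349.6, 203, 153, 259 and 289.9 in diet mice, and 248, 227, 329, 191 and 278 in control mice. It fell by 0.99 ± 0.28 in the combination (edgeR adjusted p = 0.0118) and by 1.14 ± 0.28 under DFMO (edgeR adjusted p = 0.0107). Both calls against control held for both genes in every alternative fit run. The Col4a1 call of combination against diet tumors ended without Proargdrop_DFMO_5746, Proargdrop_DFMO_5805 or Proargdrop_5702 (-0.91 to -0.81, adjusted p = 0.0508 to 0.0595). In that comparison the changes were -0.98 ± 0.30 for Col4a1 and -0.97 ± 0.28 for Col4a2 (edgeR adjusted p = 0.0203 and 0.0148). On the diet alone they were -0.13 ± 0.30 and -0.02 ± 0.28, which did not pass. The Col4a1 to Col4a2 ratio of footprint RPKM was 1.60 ± 0.0536, 1.74 ± 0.0703, 1.60 ± 0.126 and 1.75 ± 0.204 in combination, DFMO, diet and control mice (SD, n = 5 each), with overlapping ranges and no test. Col4a5, the X-linked chain, had group means of 2.35, 2.00, 3.24 and 2.38 CPM and no call.

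The pair is transcribed from one shared start region in opposite directions. Their promoters are shown as a description, 250 bases before to 50 after each start, from RefSeq on GRCm38.p6. What fell was footprints, while no type IV chain was called lower in RNA against control. The part of the promoters in the footprint fall was not tested. Capitals mark the GC box letters GGGCGG and the letters CCAAT, on either strand (CCGCCC and ATTGG).
Col4a1: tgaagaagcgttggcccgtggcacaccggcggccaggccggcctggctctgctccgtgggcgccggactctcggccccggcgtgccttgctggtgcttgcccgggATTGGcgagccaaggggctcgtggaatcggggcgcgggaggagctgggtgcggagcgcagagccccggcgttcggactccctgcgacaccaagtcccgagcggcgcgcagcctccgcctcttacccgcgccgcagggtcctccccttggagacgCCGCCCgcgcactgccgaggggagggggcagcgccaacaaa
Col4a2: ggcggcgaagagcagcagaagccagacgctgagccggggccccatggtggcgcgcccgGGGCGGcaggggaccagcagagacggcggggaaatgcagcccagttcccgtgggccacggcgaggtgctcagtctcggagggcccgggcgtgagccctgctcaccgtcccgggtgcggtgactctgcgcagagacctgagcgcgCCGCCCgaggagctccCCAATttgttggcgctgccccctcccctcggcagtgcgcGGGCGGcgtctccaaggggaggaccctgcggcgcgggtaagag
The Col4a1 window (chr8:11312777-11313076, minus strand) and the Col4a2 window (chr8:11312555-11312854, plus strand) share 78 bases. The Col4a1 window holds 1 GC box and 1 CCAAT match, and the Col4a2 window 3 and 1. The GC box of the Col4a1 window lies in the shared bases and is the same site as the last GC box of the Col4a2 window. Of 32851 promoter windows of this length, 35.7% hold GGGCGG and 37.4% hold CCAAT on either strand, so such matches are common.

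Col18a1, a basement membrane collagen whose end fragment is endostatin (ENSMUST00000105409, chr10:77053016-77113705, minus strand), had 53.4, 22.3, 24.2, 24.9 and 25.9 in combination mice, 35.3, 38.03, 36.9, 27.6 and 27.6 in DFMO mice, 98.6, 48.2, 25.3, 57.2 and 59.1 in diet mice, and 86.5, 72.1, 94.9, 49.1 and 38.8 in control mice. It fell by 1.17 ± 0.32 in the combination (edgeR adjusted p = 0.00906), in every alternative run, and by 1.04 ± 0.31 under DFMO (edgeR adjusted p = 0.03), where DFMO and control mice did not overlap. That call ended without CD_DFMO_5747, CD_DFMO_5806, CD_DFMO_5823, CD_5696, CD_5778 or CD_5781 (-1.09 to -0.89, adjusted p = 0.0502 to 0.0771). Against the diet the combination changed it by -0.94 ± 0.31 (edgeR adjusted p = 0.0309), lost in limma on log2 RPKM and without Proargdrop_DFMO_5736, Proargdrop_DFMO_5746, Proargdrop_DFMO_5805, Proargdrop_DFMO_5825, Proargdrop_5702, Proargdrop_5785 or Proargdrop_5828 (-0.95 to -0.68, adjusted p = 0.0523 to 0.0972). Its relative Col15a1 changed by -0.74 ± 0.32 in the combination and -0.62 ± 0.32 under DFMO against control, and neither passed.

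In footprints, some endothelial markers fell in the same comparisons as these chains. Of 12 markers, 6 fell in the combination and 6 under DFMO against control, 3 fell in combination against diet tumors, and none rose. In footprints, 15.5%, 8.84% and 14.0% of all genes fell in the same comparisons. Their summed footprints were 97.1 to 182 CPM in combination, 56.9 to 157 in DFMO, 152 to 238 in diet and 159 to 271 in control mice, and no marker was at 0 in any footprint library. Plvap, of fenestrated vessels, changed by -0.91 ± 0.21 (edgeR adjusted p = 0.00235) in the combination, and Flt1, a VEGF receptor, by -0.71 ± 0.17 (edgeR adjusted p = 0.00315). In RNA, 2 of 3 type IV members rose in the combination and 1 under DFMO against control, with medians of 1.90 and 2.12. Of all genes, 23.1% and 21.9% rose. Endothelial marker RNA summed to 102 to 149 CPM in combination, 68.4 to 93.5 in DFMO, 127 to 263 in diet and 136 to 325 in control mice. Every control RNA library but that of CD_5812 was of low complexity. The part of endothelial cells in the footprint fall of Col4a1, Col4a2 and Col18a1 was not tested. Macrophage marker footprints fell too, 7 of 9 in the combination and 7 of 9 under DFMO, with sums of 255 to 347 CPM in combination, 258 to 339 in DFMO, 314 to 418 in diet and 370 to 485 in control mice.

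Type VI collagen forms beaded filaments beside basement membranes. Col6a1 (ENSMUST00000001147, chr10:76708792-76726168, minus strand) had 75.3, 34.2, 37.3, 39.7 and 49.5 in combination mice, 51.7, 48.6, 31.4, 34.5 and 33.3 in DFMO mice, 106, 58.9, 33.7, 64.2 and 74.9 in diet mice, and 67.3, 67.3, 108, 61.5 and 54.1 in control mice. All DFMO mice lay below all control mice, of which CD_5781 was highest. Under DFMO, Col6a1 changed by -0.83 ± 0.27, Col6a2 by -0.86 ± 0.27 and Col6a3 by -1.15 ± 0.34 against control (edgeR adjusted p = 0.0397, 0.0354 and 0.026). The Col6a1 call ended without CD_DFMO_5747, CD_DFMO_5802, CD_DFMO_5806, CD_DFMO_5823, CD_5696, CD_5778, CD_5781 or CD_5812 (-0.91 to -0.64, adjusted p = 0.052 to 0.114), that of Col6a2 without CD_DFMO_5802, CD_DFMO_5806, CD_DFMO_5823, CD_5696, CD_5778 or CD_5781 (-0.87 to -0.70, adjusted p = 0.0548 to 0.0989) and that of Col6a3 without CD_DFMO_5747, CD_DFMO_5802, CD_DFMO_5823 or CD_5781 (-1.12 to -0.91, adjusted p = 0.0504 to 0.0741). With no filter on low counts the calls of Col6a1 (-0.83, adjusted p = 0.0586) and Col6a2 (-0.85, adjusted p = 0.0529) ended too. In the combination the changes of -0.60 ± 0.27, -0.60 ± 0.27 and -0.81 ± 0.33 did not pass.

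Col28a1, a beaded collagen known from peripheral nerve in mice (ENSMUST00000115537, chr6:7997808-8192617, minus strand), had 2.43, 4.89, 2.25, 2.11 and 3.36 in combination mice, 2.83, 17.2, 8.17, 2.69 and 2.24 in DFMO mice, 1.803, 1.82, 0, 2.798 and 4.23 in diet mice, and 0.458, 0.863, 1.24, 0 and 0.888 in control mice. All combination and DFMO mice lay above all control mice, and DFMO mouse CD_DFMO_5747 was highest. It rose by 3.21 ± 0.75 under DFMO (edgeR adjusted p = 0.00702) and by 2.09 ± 0.79 in the combination (edgeR adjusted p = 0.0471). Without mouse CD_DFMO_5747 the DFMO change was 2.43 (adjusted p = 0.0152), and the combination call ended with no filter on low counts (2.10, adjusted p = 0.0618) and without Proargdrop_DFMO_5736, Proargdrop_DFMO_5746, Proargdrop_DFMO_5805, Proargdrop_DFMO_5825, CD_DFMO_5802, Proargdrop_5702, Proargdrop_5705, Proargdrop_5785, CD_5696, CD_5778, CD_5781, CD_5812 or CD_5840 (1.78 to 2.32, adjusted p = 0.0529 to 0.106). In limma on log2(RPKM + 0.5) the combination call ended too (1.01, adjusted p = 0.055), and the DFMO change was 1.56 (adjusted p = 0.0117).

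Schwann cell markers, 8 measured, summed to 7.30 to 15.5 CPM in combination, 7.89 to 104 in DFMO, 1.94 to 9.05 in diet and 2.49 to 4.58 in control mice. Only 3 passed the filter on low counts, and all 3 rose under DFMO, where 9.24% of all genes rose. With sums this low in control mice, a marker can pass the filter through the groups where it is high. The 3 rises are therefore given as a description. Mouse CD_DFMO_5747 had the highest sum, and the defining marker Sox10 was at 0 in 4 of the 20 footprint libraries. Their part in the Col28a1 change was not tested.

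FACIT collagens decorate the surface of fibers. Col12a1, which lies on type I fibers and is known from tissue under tension, had 60.6, 38.04, 52.6, 41.4 and 52.1 in combination mice, 38.1, 34.1, 31.7, 29.1 and 20.9 in DFMO mice, 82.1, 50.05, 34.03, 60.1 and 65.7 in diet mice, and 26.6, 34.1, 46.8, 21.8 and 25.4 in control mice. It was the one member called in the diet as a whole, 0.79 ± 0.15 (edgeR adjusted p = 0.0207), and it passed in every alternative run, between 0.68 and 0.88. In the combination it rose by 0.66 ± 0.22 against control (edgeR adjusted p = 0.0272), a call lost without Proargdrop_DFMO_5732, Proargdrop_DFMO_5746, Proargdrop_DFMO_5825, CD_5696, CD_5812 or CD_5840 (0.56 to 0.64, adjusted p = 0.0519 to 0.075). On the diet alone the change was 0.92 ± 0.22 (edgeR adjusted p = 0.169) and under DFMO it was 0.00 ± 0.22.

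Col9a1, a type IX chain of cartilage (ENSMUST00000054588, chr1:24177610-24252684, plus strand), had 16.9, 2.41, 1.78, 0.906 and 6.91 in combination mice, 2.04, 0.494, 1.299, 1.796 and 1.71 in DFMO mice, 0.601, 0.404, 2.92, 1.199 and 0.875 in diet mice, and 0, 0, 2.07, 1.34 and 1.78 in control mice. It rose by 2.49 ± 0.83 in the combination against control (edgeR adjusted p = 0.0269) and by 2.32 ± 0.76 against the diet (edgeR adjusted p = 0.0266). Combination mouse Proargdrop_DFMO_5732, at 16.9 CPM, was highest, and control mice CD_5696 and CD_5778 had none. The first call ended without Proargdrop_DFMO_5732, CD_5696 or CD_5778 (1.52 to 2.24, adjusted p = 0.0571 to 0.107), and the second without Proargdrop_DFMO_5732, Proargdrop_5702, Proargdrop_5705, Proargdrop_5785 or Proargdrop_5828 (1.34 to 2.35, adjusted p = 0.0559 to 0.125) and in limma on log2(RPKM + 0.1) (1.73, adjusted p = 0.0674). In limma on log2(RPKM + 0.5) both passed with smaller Col9a1 changes, 1.27 and 1.19 (adjusted p = 0.026 and 0.0394).

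The combination mice with most Col9a1, Proargdrop_DFMO_5732 and Proargdrop_DFMO_5825, also had most pancreatic marker footprints. The 5 measured summed to 1080, 190.2, 127, 108 and 904 CPM in combination mice, and to 4.999 to 24.8 in DFMO, 2.48 to 32.2 in diet and 22.8 to 767 in control mice. Adrenal cortex markers summed to 64.9 to 207 CPM in combination, 2.86 to 43.9 in DFMO, 4.52 to 110 in diet and 11.2 to 102 in control mice. Control mouse CD_5840, at 767 CPM of pancreatic markers, had 1.78 CPM of Col9a1. The part of pancreatic or adrenal tissue in Col9a1 was not tested.

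Col9a3, another type IX chain (ENSMUST00000132527, chr2:180597790-180622189, plus strand), had 1.86, 2.795, 0.8305, 0.604 and 0.987 in combination mice, 2.26, 15.02, 5.38, 6.42 and 1.84 in DFMO mice, 2.104, 2.42, 3.57, 2.66 and 4.38 in diet mice, and 3.204, 4.53, 2.49, 1.68 and 5.33 in control mice. In combination against DFMO tumors it fell by 2.05 ± 0.49 (edgeR adjusted p = 0.0243). Mouse CD_DFMO_5747, with the highest Schwann sum, was also highest in Col9a3, and without it the change was -1.39 (adjusted p = 0.0581). The call ended without Proargdrop_DFMO_5746, Proargdrop_DFMO_5805, Proargdrop_DFMO_5825, CD_DFMO_5747 or CD_DFMO_5806 (-2.05 to -1.39, adjusted p = 0.053 to 0.0845). It also ended in limma on log2(RPKM + 0.5) (-1.35, adjusted p = 0.0953) and on log2(RPKM + 0.1) (-1.73, adjusted p = 0.0886).

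Col10a1, a short-chain collagen of growth plate cartilage that marks enlarged chondrocytes (ENSMUST00000105511, chr10:34389981-34397085, plus strand), had 5.43, 2.41, 4.51, 5.59 and 7.4995 in combination mice, 2.15, 0.296, 2.41, 1.67 and 0.658 in DFMO mice, 2.104, 0.404, 0.324, 1.599 and 1.02 in diet mice, and 0.916, 0.432, 0.829, 1.34 and 0.296 in control mice. All combination mice lay above all diet and all control mice. It rose by 2.76 ± 0.57 against control (edgeR adjusted p = 0.000917), by 2.16 ± 0.49 against the diet (edgeR adjusted p = 0.00254) and by 1.83 ± 0.45 against DFMO (edgeR adjusted p = 0.0275). The first held in every alternative run, at 1.80 in limma on log2(RPKM + 0.5). The third ended in limma with a pseudocount of 0.1 and without Proargdrop_DFMO_5805, Proargdrop_DFMO_5825, CD_DFMO_5806 or CD_DFMO_5823 (1.65 to 1.90, adjusted p = 0.0568 to 0.0957). Its level stayed low, at 2.64 ± 1.02 RPKM in combination and 0.375 ± 0.205 in control mice (SD, n = 5 each). Col8a1, the other short-chain member, was called nowhere.

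**Figure D3:**
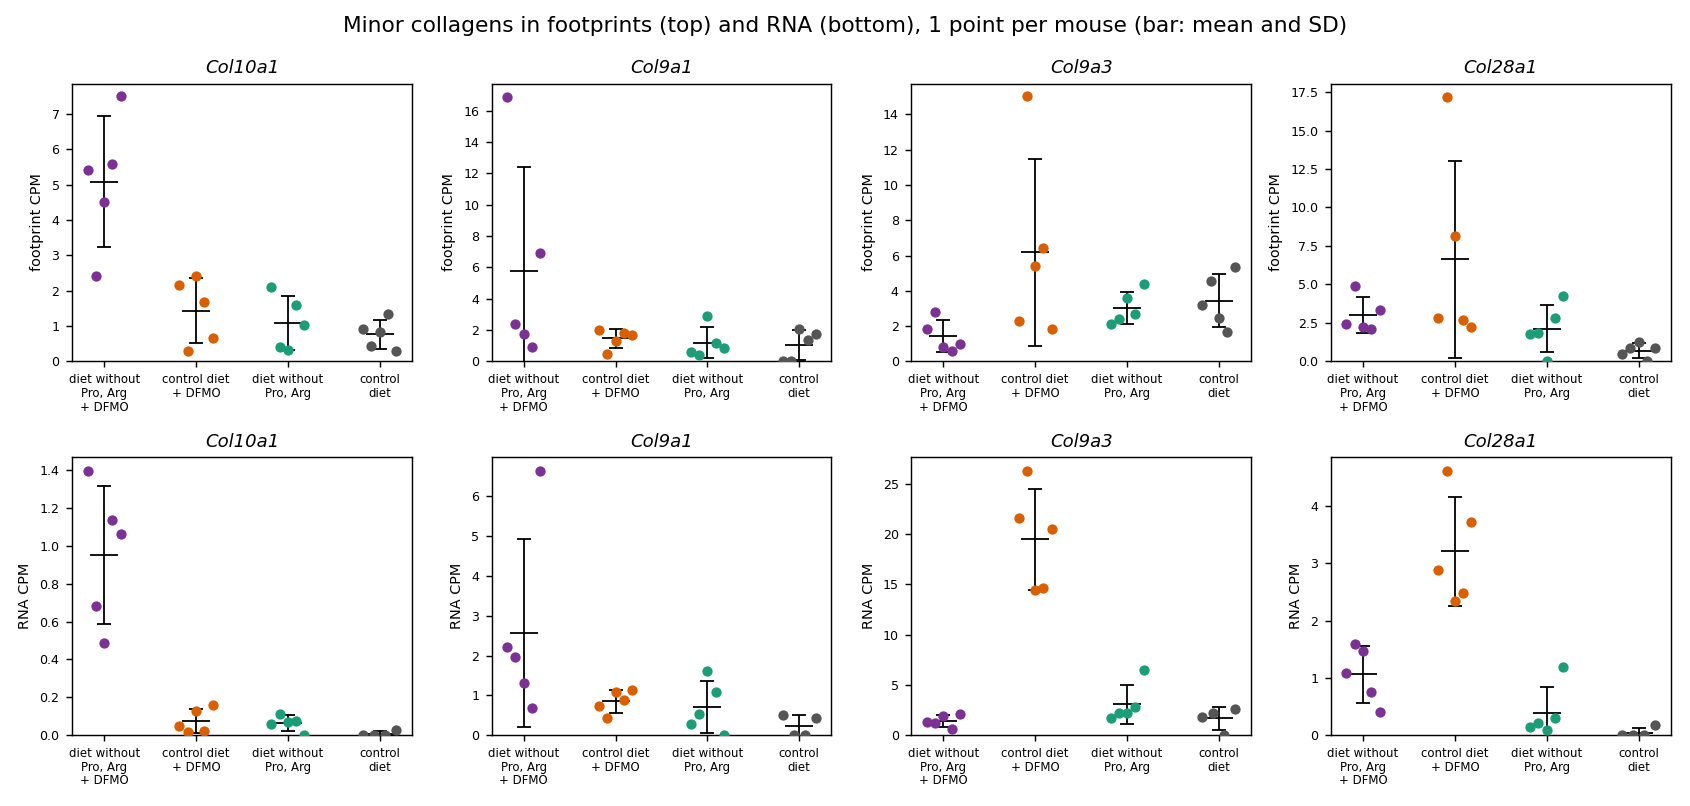
CPM of 4 minor collagens in footprints (top) and RNA (bottom), a point for each mouse, groups along the horizontal axes, and mean and SD as bars, which are cut at 0. Col10a1 RNA is at 0.49 CPM or more in all 5 combination mice and at 0.16 or less in all others, and Col9a3 RNA is at 14.5 CPM or more in all 5 DFMO mice and at 6.46 or less elsewhere.

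Neither prolyl 4-hydroxylase subunit was called in footprints. P4ha1, a catalytic subunit of prolyl 4-hydroxylase, had footprint CPM of 35.1, 22.7, 31.6, 32.9 and 29.4 in combination mice, 26.5, 29.3, 28.9, 33.6 and 26.97 in DFMO mice, 25.8, 25.6, 27.2, 31.7 and 35.5 in diet mice, and 36.2, 38.6, 26.9, 25.5 and 47.04 in control mice. P4ha2, its sister subunit (ENSMUST00000019050, chr11:54100963-54131652, plus strand), had 19.3, 14.4, 15.1, 35.2 and 26.1 in combination mice, 18.5, 16.8, 13.5, 22.5 and 15.3 in DFMO mice, 27.4, 21.2, 28.5, 21.1 and 19.8 in diet mice, and 29.3, 23.1, 17.8, 23.2 and 31.95 in control mice. The groups overlap for both. Against control, P4ha1 changed by -0.21 ± 0.15 in the combination, -0.27 ± 0.15 under DFMO and -0.26 ± 0.16 on the diet, and P4ha2 by -0.20 ± 0.22, -0.53 ± 0.22 and -0.10 ± 0.22.

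Of the lysyl hydroxylases, Plod1 and Plod3 fell and Plod2 did not pass. Plod1 (ENSMUST00000019199, chr4:147909753-147936767, minus strand), which hydroxylates lysines within the helix, had 15.1, 9.47, 9.85, 10.6 and 10.9 in combination mice, 13.6, 9.78, 11.5, 10.5 and 13.02 in DFMO mice, 15.9, 16.95, 11.3, 16.7 and 20.4 in diet mice, and 29.3, 26.3, 20.3, 16.5 and 21.01 in control mice. All combination and all DFMO mice lay below all control mice. It fell by 1.02 ± 0.18 in the combination (edgeR adjusted p = 0.000187) and by 0.96 ± 0.17 under DFMO (edgeR adjusted p = 0.00124) against control.

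Plod3, which also adds glucose to collagen (ENSMUST00000004968, chr5:136987019-136996648, plus strand), had 36.4, 33.5, 39.9, 34.7 and 39.7 in combination mice, 40.5, 39.3, 44.7, 41.4 and 35.8 in DFMO mice, 50.2, 47.2, 34.7, 43.8 and 50.5 in diet mice, and 55.8, 50.3, 52.2, 52.8 and 58.3 in control mice. The same groups did not overlap control, with changes of -0.55 ± 0.10 (edgeR adjusted p = 0.00041) and -0.42 ± 0.10 (edgeR adjusted p = 0.00809). Both genes passed against control in every alternative run. In combination against diet tumors they changed by -0.56 ± 0.17 and -0.30 ± 0.10 (edgeR adjusted p = 0.0187 and 0.0277), and limma on log2(RPKM + 0.5) ended both, with -0.33 for Plod1 and -0.10 for Plod3 (adjusted p = 0.137 and 0.548), as did limma on log2(RPKM + 0.1), with -0.35 and -0.11 (adjusted p = 0.134 and 0.549). The Plod1 call also ended without Proargdrop_5828 (-0.46, adjusted p = 0.0643) and the Plod3 call without Proargdrop_DFMO_5736, Proargdrop_DFMO_5805, Proargdrop_5702, Proargdrop_5705 or Proargdrop_5828 (-0.29 to -0.26, adjusted p = 0.0544 to 0.0787). Plod2, which acts on the telopeptides that form crosslinks (ENSMUST00000070522, chr9:92542223-92608428, plus strand), had 16.6, 17.9, 17.8, 16.5 and 12.4 in combination mice, 17.1, 14.9, 12.8, 18.6 and 14.1 in DFMO mice, 14.1, 14.3, 19.1, 13.3 and 17.5 in diet mice, and 9.16, 15.8, 12.02, 16.5 and 19.2 in control mice. It passed in no comparison, with 0.14 ± 0.17 in the combination and 0.08 ± 0.17 under DFMO against control.

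Lox, which oxidizes lysines for crosslinking (ENSMUST00000171470, chr18:52516069-52529867, minus strand), had 12.6, 6.13, 11.4, 10.1 and 12.2 in combination mice, 7.12, 5.53, 6.12, 6.54 and 6.58 in DFMO mice, 17.7, 17.8, 15.9, 18.5 and 19.8 in diet mice, and 10.1, 10.4, 22.8, 6.05 and 7.99 in control mice. Every combination mouse lay below every diet mouse, with a change of -0.79 ± 0.23 in the combination against the diet (edgeR adjusted p = 0.0132), and -0.82 ± 0.25 under DFMO against control (edgeR adjusted p = 0.0287). Limma on log2 RPKM ended both calls, and the second also ended without CD_DFMO_5747, CD_DFMO_5802 or CD_5781 (-0.80 to -0.44, adjusted p = 0.0556 to 0.159). For the diet as a whole Lox changed by 0.69 ± 0.17, just short of the threshold (edgeR adjusted p = 0.0506). Loxl1, needed for elastic fibers, averaged 9.82 ± 1.50 CPM in combination and 5.40 ± 0.965 in control mice (SD, n = 5 each), groups that did not overlap. It rose by 0.87 ± 0.30 (edgeR adjusted p = 0.0284), lost without Proargdrop_DFMO_5825, CD_5696, CD_5778, CD_5812 or CD_5840 (0.80 to 0.87, adjusted p = 0.0516 to 0.0709). Loxl2 was called nowhere.

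Serpinh1 (ENSMUST00000094154, chr7:99345389-99353239, minus strand) had 78.4, 36.6, 62.3, 53.8 and 60.6 in combination mice, 66.1, 48.7, 43.98, 48.4 and 44.6 in DFMO mice, 124, 94.04, 28.8, 75.3 and 82.001 in diet mice, and 82.4, 75.3, 91.98, 74.6 and 42.9 in control mice. It passed in no comparison, with -0.33 ± 0.28 in the combination, -0.54 ± 0.28 under DFMO and 0.15 ± 0.28 on the diet. DFMO mouse CD_DFMO_135 lay above the other 4 of its group.

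Collagens together took 0.203 ± 0.0539% of all footprints in combination, 0.188 ± 0.0743% in DFMO, 0.323 ± 0.116% in diet and 0.279 ± 0.0761% in control mice (SD, n = 5 each). With each footprint weighted by the proline codon share of its coding sequence, the collagen share was 0.685 ± 0.185%, 0.637 ± 0.247%, 1.11 ± 0.392% and 0.928 ± 0.250% in the same order of groups. The ranges of the groups overlap, and the shares were not tested.

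The diet removes proline, so footprint change was set beside proline content. On the diet alone the 16 members with 15% or more proline codons had a median change of 0.41 against control, and the other 18 a median of 0.03. For the diet as a whole the medians were 0.29 and 0.11, and in combination against diet tumors they were -0.88 and -0.32. In combination against DFMO tumors, where the groups also differ by the diet, they ran the other way, at 0.10 and 0.22. Spearman's rho over the 34 members was 0.40 on the diet, 0.26 for the diet as a whole, -0.06 in combination against DFMO tumors and -0.37 in combination against diet tumors, as a description, since the points share libraries and base composition. Among the 25 collagens alone rho was 0.32, 0.31, 0.09 and -0.20 in the same order.

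**Figure D4:**
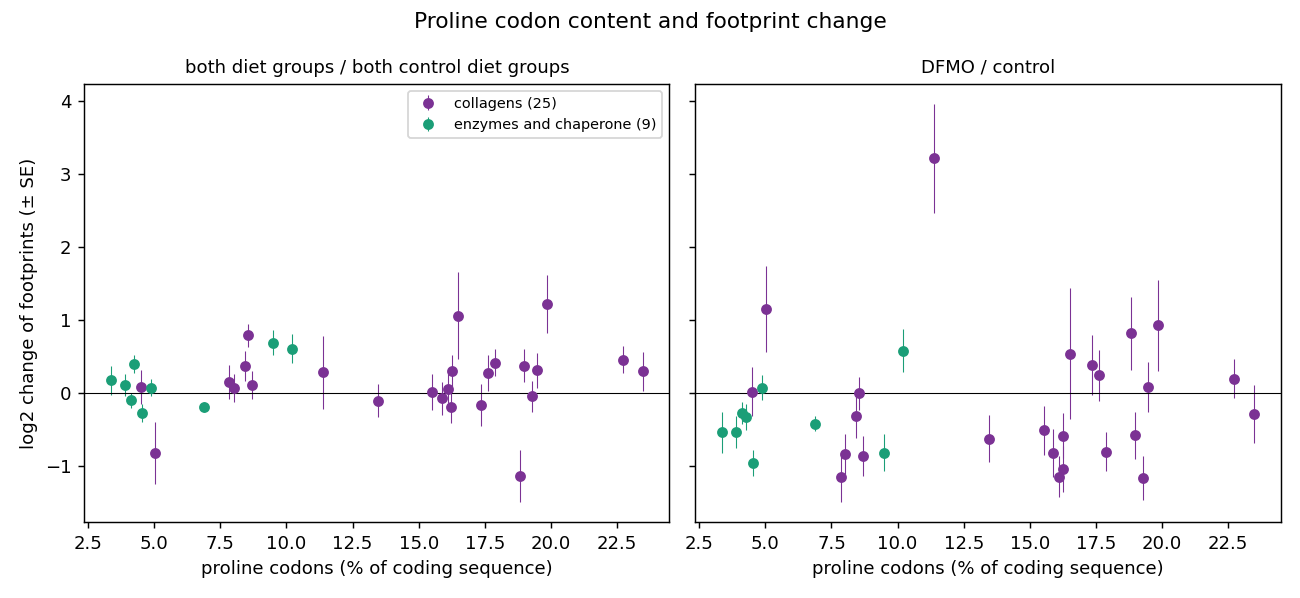
Log2 footprint change (± SE, vertical axes) against the percent of proline codons in the coding sequence (horizontal axes) for the 25 collagens and 9 other members, in both diet groups against both control diet groups (left) and in DFMO against control tumors (right). Members with most proline codons lie on both sides of 0 in the left panel, where their median is 0.29.

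In RNA, members passed mostly upward against control. In the combination 14 rose and none fell (40.8% of 14280 genes called, 23.1% higher and 17.7% lower). Under DFMO 11 rose and none fell (39.5% called, 21.9% higher and 17.5% lower). On the diet 1 rose, Col12a1 (3.40% called, 2.27% higher and 1.13% lower). The median of the members was 0.89 in combination, 0.92 in DFMO and 0.72 in diet tumors, beside 0.31, 0.28 and 0.23 over all genes tested. Without the 4 low-complexity RNA libraries, only that of CD_5812 remained among the control mice. Counts of calls from such fits are therefore not compared with these. The part of the low-complexity and unmatched RNA libraries in these counts was not tested.

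Comparisons among treated groups set no library against control RNA. In combination against DFMO tumors P4ha2 and Col10a1 rose and Col16a1 and Col9a3 fell (5.13% of genes called, 3.07% higher and 2.07% lower). Against the diet Col10a1, Col28a1 and Col6a5 rose (17.7% called, 9.03% higher and 8.68% lower). Col10a1 RNA CPM were 1.398, 0.684, 0.4898, 1.14 and 1.06 in combination mice, 0.0502, 0.0154, 0.125, 0.0224 and 0.16002 in DFMO mice, 0.0584, 0.113, 0.07101, 0.0728 and 0 in diet mice, and 0, 0, 0 and 0.02903 in control mice. Every combination mouse lay above every other mouse, and the change was 3.59 ± 0.58 against DFMO (edgeR adjusted p = 0.00053) and 3.63 ± 0.61 against the diet (edgeR adjusted p = 0.000492). Both calls held without the low-complexity libraries, without the unmatched ones and without all 7. In limma on log2(RPKM + 0.5), where low genes move less, the Col10a1 changes were 0.93 and 0.95, and both passed.

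Col9a3 RNA CPM were 1.28, 1.17, 1.94, 0.595 and 2.06 in combination mice, 21.6, 26.3, 14.5, 14.6 and 20.5 in DFMO mice, 1.66, 2.201, 2.201, 2.77 and 6.46 in diet mice, and 1.82, 2.24, 0 and 2.58 in control mice. All 5 DFMO mice lay above every other mouse in RNA. In footprints, CD_DFMO_135 and CD_DFMO_5823, whose RNA was unmatched, lay within the control range of Col9a3. The RNA change was -3.79 ± 0.50 in combination against DFMO tumors (edgeR adjusted p = 0.000103), and it held in the same 3 refits, at -3.67 to -3.80. Schwann markers in RNA summed to 4.02 to 8.75 CPM in combination, 36.4 to 108 in DFMO, 1.25 to 11.5 in diet and 3.48 to 15.6 in control mice. Their part in the Col9a3 difference was not tested.

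Col16a1, a FACIT chain (ENSMUST00000044565, chr4:130047840-130099277, plus strand), had RNA CPM of 5.42, 6.44, 6.65, 3.76 and 8.21 in combination mice, 28.3, 30.8, 23.8, 16.5 and 26.97 in DFMO mice, 8.32, 4.81, 2.96, 5.72 and 18.2 in diet mice, and 6.54, 6.89, 22.4 and 3.54 in control mice. The combination and DFMO groups did not overlap, with a change of -2.05 ± 0.46 (edgeR adjusted p = 0.0101), lost without the 3 unmatched libraries (-1.91, adjusted p = 0.229) but not without all 7 (-1.94, adjusted p = 0.00259). P4ha2 RNA CPM were 46.1, 26.6, 17.8, 43.1 and 39.4 in combination mice, 16.4, 16.6, 16.7, 19.5 and 15.98 in DFMO mice, 30.2, 18.1, 20.4, 25.5 and 27.9 in diet mice, and 23.3, 35.9, 11.7 and 24.4 in control mice. It rose by 1.02 ± 0.28 in combination against DFMO tumors (edgeR adjusted p = 0.0364), and without the unmatched libraries the change was 0.85 (adjusted p = 0.551). That call also ended in limma and without any one of combination mice Proargdrop_DFMO_5732, Proargdrop_DFMO_5805 and Proargdrop_DFMO_5825, the 5 DFMO mice and control mouse CD_5696 (0.90 to 1.08, adjusted p = 0.0508 to 0.127). Col28a1 and Col6a5 rose by 1.86 ± 0.61 and 1.88 ± 0.47 in combination against diet tumors (edgeR adjusted p = 0.0406 and 0.00919), and the Col28a1 call ended without the unmatched libraries (1.77, adjusted p = 0.151). It also ended without any one of 4 combination mice (Proargdrop_DFMO_5732, Proargdrop_DFMO_5736, Proargdrop_DFMO_5746 and Proargdrop_DFMO_5805), 5 DFMO mice and 4 diet mice (Proargdrop_5702, Proargdrop_5705, Proargdrop_5784 and Proargdrop_5785), at 1.56 to 1.96 (adjusted p = 0.0525 to 0.104).

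Col12a1 RNA CPM were 2.72, 1.95, 2.84, 2.41 and 3.72 in combination mice, 1.91, 1.76, 1.89, 1.504 and 1.58 in DFMO mice, 3.33, 1.43, 2.06, 1.97 and 0.659 in diet mice, and 0.497, 0.947, 0 and 0.464 in control mice. Against control it rose by 2.36 ± 0.50 in the combination, 1.70 ± 0.49 under DFMO and 1.87 ± 0.49 on the diet (edgeR adjusted p = 0.00136, 0.0103 and 0.0435). Without all 7 libraries named above, the changes were 2.53 in the combination, 1.88 under DFMO and 2.23 on the diet. Only the control RNA library of CD_5812 remained in that fit, so it cannot show whether the calls held. In limma on log2(RPKM + 0.5) the Col12a1 changes were 0.67, 0.46 and 0.42, of which the diet one did not pass (adjusted p = 0.0556), nor did it with no filter on low counts (1.88, adjusted p = 0.0539). The diet call ended in 16 of 19 fits that leave out a mouse (1.57 to 2.28), with its lowest value without diet mouse Proargdrop_5702 and its highest without control mouse CD_5778. Col1a1 RNA CPM were 109, 126, 199, 72.9 and 148 in combination mice, 159, 162, 145, 131 and 146 in DFMO mice, 208, 134, 122, 131 and 49.3 in diet mice, and 63.998, 109, 53.05 and 61.1 in control mice. They were higher in every DFMO than in every control library, but all control libraries except that of CD_5812 were of low complexity.

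Translation efficiency, footprints relative to RNA in one model of both assays, fell against control for 13 members in the combination (27.8% of 11847 genes called, 13.7% higher and 14.0% lower) and for 16 under DFMO (31.3% called, 15.1% higher and 16.3% lower), and rose for none. Col4a2 changed by -2.75 ± 0.57 in the combination (edgeR adjusted p = 0.00104) and by -3.14 ± 0.57 under DFMO (edgeR adjusted p = 0.000253), and Col6a1 by -2.66 ± 0.52 and -2.34 ± 0.52 (edgeR adjusted p = 0.000751 and 0.00127). Control RNA counts in CD_5696, CD_5778, CD_5781 and CD_5812 were 46, 54, 0 and 191 for Col4a2, and 54, 69, 10 and 195 for Col6a1. All of these libraries but that of CD_5812 were of low complexity. Without the low-complexity RNA only the control RNA library of CD_5812 remained, so counts of calls from such fits are not compared here. With the mouse as a block, 13 and 16 members were called over 38 libraries.

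No member passed in efficiency on the diet (4.76% of genes called, 1.01% higher and 3.75% lower), in the combination against DFMO (0%, with 371 genes at an unadjusted p under 0.05) or in the combination against the diet (0.819% called, 0.709% higher and 0.110% lower). At an unadjusted p under 0.05 there were 6, 3 and 6 members, and DESeq2 called 4, 0 and 0.

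Other genes of the collagen route are given by list, in footprints. Beside these and the lists below, 16.7% of all genes rose and 15.5% fell in the combination against control. The shares were 9.24% and 8.84% under DFMO, and 14.0% fell in combination against diet tumors. Counts near these shares say nothing particular about a list. Of 12 tested genes for folding and modification of collagens, 1 rose and 3 fell in the combination and 3 fell under DFMO against control. P4hb, the shared subunit of prolyl 4-hydroxylase, changed by -0.35 ± 0.07 (edgeR adjusted p = 0.00122) and -0.37 ± 0.07 (edgeR adjusted p = 0.00243), and Ppib, a prolyl isomerase, by -0.48 ± 0.12 (edgeR adjusted p = 0.00493) and -0.36 ± 0.12 (edgeR adjusted p = 0.046). P3h1, a prolyl 3-hydroxylase, changed by -1.13 ± 0.22 (edgeR adjusted p = 0.000768) in combination against diet tumors.

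Among 8 tested genes of collagen secretion and propeptide removal, 4 rose and 1 fell in the combination and 3 rose under DFMO. Sec24d and Sec23a, coat proteins that large collagen cargo needs, changed by 1.22 ± 0.22 (edgeR adjusted p = 0.000263) and 0.93 ± 0.19 (edgeR adjusted p = 0.000769) in the combination. Pcolce, which enhances propeptide removal, changed by 0.68 ± 0.12 (edgeR adjusted p = 0.00798) for the diet as a whole. Of 11 tested genes for collagen breakdown, 2 rose and 2 fell in the combination, among them Pepd, the prolidase that frees proline from collagen peptides, by -0.56 ± 0.11 (edgeR adjusted p = 0.000487), and the collagenase Mmp2 by 1.38 ± 0.35 (edgeR adjusted p = 0.00628).

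Collagen receptors gave 1 higher and 1 lower of 8 tested in the combination, with Ddr2, a receptor for fibrillar collagen, at 1.97 ± 0.45 (edgeR adjusted p = 0.00255). Receptor footprints together were lower in combination than in control mice, at sums of 412 to 544 against 587 to 709 CPM. Of 23 tested matrix genes other than collagens, 8 fell in the combination, 6 fell and 1 rose under DFMO, and 7 fell in combination against diet tumors. Thbs1, which activates TGF-beta, changed by -1.81 ± 0.22 (edgeR adjusted p = 1.73e-05) and -1.72 ± 0.22 (edgeR adjusted p = 0.00017), and Fmod, which shapes collagen fibers, by 0.98 ± 0.21 (edgeR adjusted p = 0.0315) for the diet as a whole. In the TGF-beta list, 3 of 16 tested rose and 1 fell in the combination, and under DFMO its target Ccn2 changed by -1.15 ± 0.23 (edgeR adjusted p = 0.00261).

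Of 8 tested genes of proline synthesis, breakdown and transport, 1 rose and 3 fell in the combination. Aldh18a1, the first enzyme of proline synthesis from glutamate, changed by -0.49 ± 0.14 (edgeR adjusted p = 0.00879), and Slc36a1, a proline transporter, by 1.96 ± 0.48 (edgeR adjusted p = 0.00461). Under DFMO, Pycr1, the last enzyme of that route, changed by -0.63 ± 0.19 (edgeR adjusted p = 0.0282). On the diet alone none of these lists had a call. Of 14 tested hypoxia genes, a list that includes targets shared with P4ha1, 1 rose and 2 fell in the combination. Fibroblast and pericyte markers other than collagens summed to 680.4 to 854 CPM in combination, 665 to 939 in DFMO, 482 to 891 in diet and 579 to 897 in control mice, with 1 higher and 1 lower of 17 in the combination and 2 higher and 3 lower under DFMO. On the diet none passed.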

How the data were processed

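Deposited were the authors' counts per transcript (20 libraries of footprints, 19 of RNA) and the authors' RPKM values of the same libraries. Every sample column was used (0 left over). Per the submitters' processing notes, the tools were cutadapt, Bowtie2 and HISAT2 on GRCm38. The counting tool, the strand setting and the treatment of reads that match several transcripts have no description in the sources used here. Of 20333 transcripts, 20244 were found in GENCODE M21. How reads from the similar collagen repeats, or from the overlapping starts of Col4a1 and Col4a2, were divided is therefore unknown.

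The tests ran on counts, with edgeR 4.0.16 under R 4.3.3 (robust quasi-likelihood test, TMM, filterByExpr, all groups in 1 fit). Efficiency was tested as an assay by group interaction in 39 libraries, in which the RNA of control mouse CD_5840 was not analysed here. Footprints and RNA came from the same extract, so libraries of a mouse form a pair, and a fit with the mouse as a block was an alternative. Other alternatives were RLE scaling, no filter, DESeq2 1.42.0, limma 3.58.1 on log2 RPKM with pseudocounts of 0.5 and 0.1, and leaving out mice or RNA libraries. The limit of 14000 detected transcripts defined low complexity. The scripts were tested on simulated data. Tables and drawings were made in Python 3.11.15 (pandas 2.3.3, matplotlib 3.10.9). Values in every library are given for 22 members, 13 set by name and others among the 3 smallest p values per direction and comparison, and list genes are those with the smallest p. Members and lists were chosen with earlier results of these data known. Some marker genes are not reported here by name.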

Additional observations from a re-analysis of the deposited data

Results flagged for a closer look

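Single mice stood apart from the other 4 of their group in footprints, or from the other libraries of their group in RNA. A gap test (Dixon, 95%) marked 14 of 104 groups of libraries looked at, and chance marks about 1 in 20. Combination mouse Proargdrop_DFMO_5732 was highest in its group for Col3a1 (420.3 CPM), Col4a1 (404 CPM), Col4a2 (251 CPM), Col18a1 (53.4 CPM) and Plod1 (15.1 CPM). DFMO mouse CD_DFMO_135 was highest for Col4a2 (164 CPM) and Serpinh1 (66.1 CPM). Control mouse CD_5781 was highest for Col6a1 (108 CPM), Lox (22.8 CPM) and Col5a3 (42.3 CPM). Combination mouse Proargdrop_DFMO_5825 was lowest for Plod2 (12.4 CPM). In RNA, control mouse CD_5812 had 0.0290 CPM of Col10a1 where the other 3 had 0, diet mouse Proargdrop_5828 was highest for Col9a3 (6.46 CPM) and DFMO mouse CD_DFMO_5806 was highest for P4ha2 (19.5 CPM).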

How the results depend on the processing

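Counts of members called in footprints stayed within 1.5 times under RLE scaling, no filter and DESeq2, except for the diet against control (1 in DESeq2, against 0) and the diet as a whole (2 under RLE scaling and in DESeq2, against 1). Limma on log2 RPKM with pseudocounts of 0.5 and 0.1 called 1 and 0 members in combination against DFMO tumors (against 2), and 7 and 6 in combination against diet tumors (against 12). Leaving out each mouse in turn gave 7 to 15 in combination and 5 to 11 in DFMO tumors against control, 0 for the diet and for the interaction, 0 to 3 and 7 to 20 in the combination against DFMO and against the diet, and 1 to 2 for the diet as a whole. The lowest counts came without control mouse CD_5696 (7 in the combination), control mouse CD_5781 (5 under DFMO, with 6 or 7 without DFMO mouse CD_DFMO_5747, CD_DFMO_5802, CD_DFMO_5806 or CD_DFMO_5823 or control mouse CD_5696 or CD_5778), combination mouse Proargdrop_DFMO_5805 or Proargdrop_DFMO_5825 or DFMO mouse CD_DFMO_5806 (0 against DFMO), and diet mouse Proargdrop_5702 or Proargdrop_5828 (7 against the diet), and the highest of 20 without diet mouse Proargdrop_5784.

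RNA counts moved more. In the combination against control they were 25 and 25 in limma. Under DFMO they were 17 in DESeq2, 25 and 27 in limma, and 6 without the unmatched libraries. On the diet they were 3 under RLE scaling, 0 with no filter, 7 in DESeq2, 0 and 2 in limma, and 0 without unmatched RNA. In the combination against DFMO they were 13 without low-complexity and 2 without unmatched RNA. Against the diet they were 5 in DESeq2, 10 without low-complexity RNA and 6 without both kinds. Leaving out each mouse gave 8 to 17, 10 to 16, 0 to 11, 3 to 6 and 2 to 7 over these 5 comparisons. In the combination the count was 9 without combination mouse Proargdrop_DFMO_5746 and 8 without control mouse CD_5696. On the diet, 11 were called without diet mouse Proargdrop_5828 and 6 without control mouse CD_5812. Against the diet, the combination had 7 without control mouse CD_5781.

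Efficiency counts were 21 in the combination and 26 under DFMO in limma with 0.1. On the diet they were 1 under RLE scaling, 4 in DESeq2, and 4 and 5 in limma, and in combination against diet tumors 2 without low-complexity RNA. Leaving out each mouse gave 6 to 16, 11 to 19, 0 to 5, 0 and 0, with 6 without combination mouse Proargdrop_DFMO_5746 and 5 on the diet without diet mouse Proargdrop_5828 or control mouse CD_5812. With the replicate block the counts were 13, 16, 0, 0 and 0, and 14, 15, 0, 0 and 0 over the same 38 libraries without it. The change of Col12a1 in the combination reversed in limma with 0.5, at 0.00826 (adjusted p = 0.981), and the cause of these moves was not tested. Fits without low-complexity RNA keep a single control RNA library, which is assumed to vary like the other groups. Their counts of members called against control are therefore not given. Low footprint depth in controls limits the weakest members, with 0 counts for Col9a1 or Col28a1 in single libraries.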
